A study of Mus musculus with 36 samples.

Results

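Zfp949, Gm37614, Gm11868, Gm7049 and Gm5540 were 5 of the 56748 genes in the expression table, chosen by name because earlier results of these data set mice with the adipocyte Cre transgene apart from their littermates on genes other than Mlkl. The differences between the genotypes that named them are therefore described here without a test. The same 18 male mice gave a library of visceral white adipose tissue (visWAT, epididymal fat) and a library of liver, 36 libraries in all. All mice were bred on C57BL/6J and carried loxP-flanked Mlkl. MlklAdi-KO mice (KO) also carried Adipo-Cre, which acts in mature adipocytes, and their WT littermates lacked Cre, so that in KO mice Mlkl should be lost from fat cells but not from the other cells of the fat pad or from liver. From the age of 16 weeks, 4 KO and 4 WT mice were given a normal chow diet (NCD) and 5 KO and 5 WT mice a high-fat diet (HFD) for 16 weeks. Levels are FPKM (fragments per kilobase of gene, scaled to a common library size) as deposited.

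Zfp949 belongs to the zinc finger genes, many of whose products bind DNA and adjust transcription. Gm11868, Gm7049 and Gm5540 are annotated as processed pseudogenes, that is, copies of a spliced mRNA that were written back into the genome away from the parent gene. Gm37614 carries the annotation TEC, a transcript that still awaits experimental evidence. In a cross, DNA close to a transgene or to a targeted allele is inherited together with it, and littermates without the transgene carry the other version of that DNA.

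Zfp949 (ENSMUSG00000032425) spanned chr9:88430073-88453114 on the plus strand of GRCm39, and it overlapped exons of the lncRNAs Gm68674 and 9430037G07Rik on the opposite strand and held the small RNA gene Gm26461. Gm37614 (ENSMUSG00000103837) lay 256 kb beyond its end, at chr9:88708657-88708866 on the minus strand, inside introns of the lncRNAs 9330159M07Rik and Gm10634. Gm11868 (ENSMUSG00000050550, chr4:18844202-18845679, minus strand) lay in an intron of Cnbd1, which is read from the same strand, and of the lncRNA Gm11867 on the opposite strand. Gm7049 (ENSMUSG00000113637, chr13:62960890-62962601, plus strand) overlapped exons of the lncRNA Gm48795 on the opposite strand, and Gm5540 (ENSMUSG00000048916, chr3:65300758-65302605, plus strand) overlapped no other gene. Members were thus spread over 4 chromosomes, and only Zfp949 and Gm37614 were close to each other.

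The transcripts most like the 3 pseudogenes were found by alignment to GENCODE vM39. Gm11868 matched Cyb5r4, which encodes a cytochrome b5 reductase, at 97.98% of 1485 aligned bases, with 23 mismatches. Gm7049 matched Me1, the cytosolic malic enzyme that supplies NADPH for fatty acid synthesis, at 98.6% of 1713 bases, with 21 mismatches. Gm5540 matched Acsf2, a mitochondrial acyl-CoA synthetase, at 99.0% of 1848 bases, with 18 mismatches. Me1 and Cyb5r4 start 1.97 and 1.53 Mb before Zfp949 on chromosome 9, whereas Acsf2 is on chromosome 11. These 3 parent genes were named after the values had been seen. The stretches below show how little separates a pseudogene from its parent. Each covers 120 bases of coding sequence of the parent, chosen for the most mismatches in a stretch without gaps, and capitals mark the mismatched bases.
Gm11868, chr4:18845531-18845650, minus strand: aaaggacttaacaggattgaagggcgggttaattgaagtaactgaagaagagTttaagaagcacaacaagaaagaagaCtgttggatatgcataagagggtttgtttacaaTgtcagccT
Cyb5r4 transcript: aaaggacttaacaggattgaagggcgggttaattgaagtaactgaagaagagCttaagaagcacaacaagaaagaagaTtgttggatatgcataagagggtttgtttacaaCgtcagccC
Gm7049, chr13:62961295-62961414, plus strand: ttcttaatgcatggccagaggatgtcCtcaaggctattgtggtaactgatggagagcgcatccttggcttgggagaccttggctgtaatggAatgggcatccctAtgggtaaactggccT
Me1 transcript: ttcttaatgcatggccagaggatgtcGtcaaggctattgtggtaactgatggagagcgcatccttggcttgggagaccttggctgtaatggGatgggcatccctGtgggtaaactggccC
Gm5540, chr3:65301334-65301453, plus strand: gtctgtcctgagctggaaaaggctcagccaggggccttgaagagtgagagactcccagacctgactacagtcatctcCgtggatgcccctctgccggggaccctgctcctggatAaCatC
Acsf2 transcript: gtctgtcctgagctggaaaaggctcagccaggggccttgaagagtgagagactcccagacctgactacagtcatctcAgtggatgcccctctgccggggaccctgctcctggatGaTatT

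Even these stretches differed at only 4 of 120 bases. Of all 100-base windows of the alignments, 11.8% for Gm11868, 23.4% for Gm7049 and 38.3% for Gm5540 held no mismatch. The longest stretches without one were 150, 301 and 294 bases, and a read pair that lies wholly within such a stretch cannot be assigned to pseudogene or parent. How reads with several possible origins were counted, and whether strand was used, is not given in the sources used here, so levels of these genes are uncertain. Whole copies were also sought in the GRCm39 genome, a search in which the parent genes, being split by introns, could not be counted. No other unbroken stretch matched a pseudogene at 95% or more of its bases over 95% of its length. Gm37614 was the opposite case. Its 210 bases, shown here because the whole annotated gene is this short, occurred at 868 other places with at least 98% identity, 37 of them without any mismatch. A read pair that lies wholly within these bases cannot be assigned to this place, so reads counted on Gm37614 may come from elsewhere in the genome.
Gm37614, chr9:88708657-88708866, minus strand: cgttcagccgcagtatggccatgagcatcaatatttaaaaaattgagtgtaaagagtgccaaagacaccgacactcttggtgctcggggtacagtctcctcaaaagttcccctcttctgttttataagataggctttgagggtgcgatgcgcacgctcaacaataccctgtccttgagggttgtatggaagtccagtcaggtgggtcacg

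Between 20875463 and 30322171 reads fell on genes in each library, and 100% of the FPKM values corresponded to whole reads (within 0.02 of a read). Markers of mature adipocytes took 1.82% to 4.30% of the reads in visWAT and at most 0.0221% in liver, and hepatocyte markers took 7.46% to 11.5% in liver and at most 0.555% in visWAT. Macrophage markers took 0.0148% to 0.203% of the reads in visWAT and 0.00497% to 0.0143% in liver, and testis germ cell markers at most 0.000240% in either tissue. Genes of epididymis and seminal vesicle took 15.7% of the reads in the visWAT library of WT NCD mouse 183, 0.0222% in that of mouse 182 and at most 0.00769% in the others. In bulk tissue, fewer cells of a type and less RNA per cell cannot be told apart. Mlkl, the targeted gene, ranged in visWAT on HFD from 2.32 to 2.72 FPKM in KO mice and from 4.58 to 6.28 FPKM in WT mice. On NCD it ranged from 1.96 to 2.49 FPKM in KO mice and from 3.91 to 5.11 FPKM in WT mice 165, 180 and 183. Its level was 2.29 FPKM in the library labelled WT NCD mouse 182, inside the KO range and against its label. In liver of mouse 182 Mlkl was at 4.19 FPKM, above the KO (up to 3.94) and other WT mice (up to 2.89) on NCD. Mouse 182 also differed over all genes, by chi-square per gene between the read counts of 2 libraries. In liver this was 107 to 123 against other WT NCD mice, themselves at 12.1 to 20.7. In visWAT it was 207 to 313 against mice 165 and 180, themselves at 37.0, and mouse 183 was at 706 to 959. Separations of members on NCD are given with and without mouse 182.

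Zfp949 was higher in every KO mouse than in every WT mouse in visWAT on both diets. On HFD, KO mice 151, 152, 153, 156 and 157 had 5.03, 4.58, 5.01, 6.29 and 4.60 FPKM, while levels in WT mice 154, 155, 161, 162 and 164 were 1.88, 1.80, 1.497, 1.78 and 1.68 FPKM. The means were 5.10 ± 0.696 and 1.73 ± 0.148 FPKM (SD, n = 5 each), a ratio of 2.95. On NCD, KO mice 166, 179, 197 and 199 had 6.11, 6.94, 7.15 and 7.10 FPKM, against 2.45, 2.26 and 3.38 FPKM in WT mice 165, 180 and 183. Zfp949 stood at 3.52 FPKM in the library labelled WT NCD mouse 182, just above mouse 183 and well under all KO mice. The visWAT library of mouse 183 is the one with 15.7% of reads on genes of epididymis and seminal vesicle. The ratio of the means was 2.35 with mouse 182 and 2.53 without mouse 182.

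In liver, a tissue in which this Cre is not expected to act, Zfp949 separated the genotypes as well, by a smaller ratio. On HFD, the 5 KO mice ranged from 3.49 to 4.06 FPKM (3.82 ± 0.214, SD) and the 5 WT mice from 1.99 to 2.33 FPKM (2.15 ± 0.165, SD), a ratio of 1.78. On NCD, KO mice had 3.61, 3.96, 4.13 and 4.18 FPKM against 2.16, 2.20 and 2.57 FPKM in WT mice 165, 180 and 183. Its level was 4.98 FPKM in the library labelled WT NCD mouse 182, above all 4 KO mice, so that the groups overlapped with it and were separate without it, where the ratio was 1.72. Each Zfp949 value rested on 135 reads or more.

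Gm37614 had no reads in any WT mouse except 182, in either tissue. Reads counted on it may come from other copies of its sequence, so the levels and ratios below are not of this place alone. On HFD, the KO mice had 1.30, 3.39, 3.96, 0.969 and 2.08 FPKM in visWAT (mice 151, 152, 153, 156 and 157, 6 to 30 reads each) and 2.33, 10.4, 5.91, 3.56 and 2.04 FPKM in liver (7 to 42 reads). With 0 reads in the 5 WT libraries and a floor of 3 reads over the group, KO mice were at least 28.5-fold higher in visWAT and at least 31.8-fold higher in liver. On NCD, KO mice ranged from 1.02 to 2.66 FPKM in visWAT and from 2.36 to 4.10 FPKM in liver, and WT mice 165, 180 and 183 were at 0. Gm37614 was nevertheless present in the library labelled WT NCD mouse 182, where visWAT had 2.11 FPKM (12 reads), within the KO range, and liver had 6.43 FPKM (28 reads), above it. Without mouse 182, the bounds on NCD were at least 12.3-fold in visWAT and at least 11.9-fold in liver. Among KO mice the levels spread widely, with mouse 152 highest in liver and mouse 153 highest in visWAT.

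Gm11868, the copy of Cyb5r4, was near 0 in WT mice other than 182 and at 0.837 FPKM or above in every KO library. On HFD, KO mice had 2.12, 2.13, 1.72, 1.31 and 1.43 FPKM in visWAT and 1.57, 1.80, 1.18, 1.75 and 2.07 FPKM in liver, while WT mice reached at most 0.0936 FPKM in visWAT and 0.180 FPKM in liver. The means were 1.74 ± 0.381 and 0.0544 ± 0.0389 FPKM in visWAT and 1.67 ± 0.330 and 0.0769 ± 0.0908 FPKM in liver (SD, n = 5 each). On NCD, KO mice ranged from 0.837 to 1.28 FPKM in visWAT and from 1.31 to 2.06 FPKM in liver, and WT mice 165, 180 and 183 reached at most 0.110 FPKM (5 reads). Gm11868 was present in the library labelled WT NCD mouse 182 too, at 1.55 FPKM in visWAT, above all 4 KO mice, and 1.04 FPKM in liver, under all 4 KO mice but 12.8 times the highest other WT mouse.

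Gm7049, the copy of Me1, showed the same order of mice. In liver on NCD, KO mice 166, 179, 197 and 199 had 4.25, 4.40, 3.53 and 3.36 FPKM, against 0.141, 0.250 and 0.198 FPKM in WT mice 165, 180 and 183. A level of 2.45 FPKM, between both groups, was found in the library labelled WT NCD mouse 182. In liver on HFD, KO mice ranged from 0.607 to 1.27 FPKM and WT mice from 0 to 0.0957 FPKM. In visWAT, KO mice ranged from 1.45 to 2.01 FPKM on NCD and from 0.373 to 1.44 FPKM on HFD, and WT mice other than 182 reached at most 0.116 FPKM (8 reads). With 22.6 FPKM (1047 reads), the visWAT level in the library labelled WT NCD mouse 182 was 301 times the highest other WT mouse on NCD and above every KO mouse. Me1 itself was at 1436 FPKM in that library, whereas the other NCD-fed WT mice reached 231 FPKM and the KO mice 193 FPKM.

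Gm5540, the copy of Acsf2, went against its inclusion among genes that track the genotype. In liver on NCD, WT mice 165, 180 and 183 had 12.6, 10.9 and 11.8 FPKM and KO mice 166, 179, 197 and 199 had 0.507, 0.684, 0.587 and 0.482 FPKM, so KO mice were lower. On HFD the order turned, and KO mice had 8.27, 8.37, 9.57, 10.01 and 8.998 FPKM while WT mice 154, 155, 161 and 164 had 0.756, 0.664, 0.332 and 0.414 FPKM. WT mouse 162 had 9.84 FPKM, within the KO range, and so the genotypes overlapped. In visWAT the same mice were high and low at lower levels, with KO mice at 0.0187 to 0.149 FPKM on NCD and 0.926 to 1.14 FPKM on HFD, and with WT mouse 162 at 0.988 FPKM among WT mice at 0.0182 to 0.155 FPKM. The highest levels of all 18 mice, 9.63 FPKM in visWAT and 24.02 FPKM in liver, belonged to the library labelled WT NCD mouse 182.

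**Figure D1:**
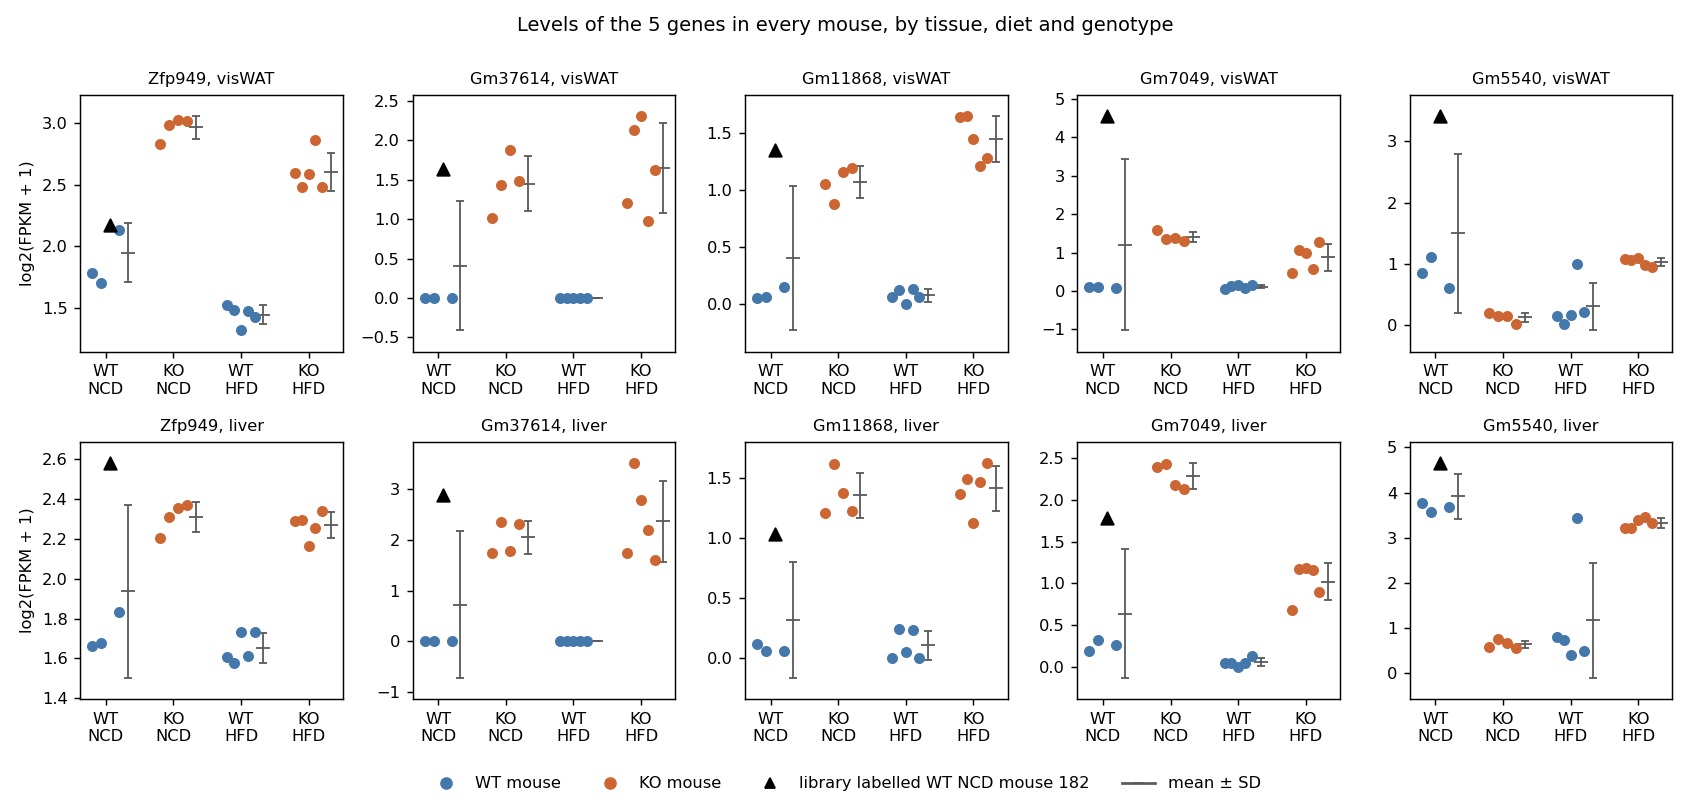
Levels of the 5 genes as log2(FPKM + 1) (vertical axes) in each mouse, by genotype and diet, in visWAT (upper panels) and liver (lower panels), with bars for the mean and SD of each group. KO mice lie above WT mice other than the library labelled WT NCD mouse 182 (triangle) for Zfp949, Gm37614, Gm11868 and Gm7049, while Gm5540 changes order between the diets.

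In counts, every KO mouse was above every WT mouse on HFD for 4 of the 5 members in visWAT, where 1.42% of 13963 genes were separated in that direction. In liver this held for 4 of 5, where the share was 1.38% of 13215 genes. These shares within a tissue and diet are of genes that passed the filter on low values, whereas members were counted whether or not they passed it. Gm7049 was separated in visWAT on HFD but did not pass the filter there, so it is not among the 13963 genes. On NCD with all mice this held for 1 of 5 in visWAT (1.87% of all genes) and for 2 of 5 in liver (1.39%). Without mouse 182 it held for 4 of 5 in both tissues (3.34% and 2.75% of all genes). Gm5540 was lower in every KO mouse than in every WT mouse on NCD in both tissues, with or without mouse 182, where 0.59% of all genes in visWAT and 1.4% in liver were separated in that direction with all mice, and 1.64% and 3.91% without mouse 182. On HFD 0 of 5 members were lower in every KO mouse in either tissue (1.59% of all genes in visWAT, 1.24% in liver). Across 11489 genes expressed in both tissues, 7 were higher in every KO mouse in all 4 combinations of tissue and diet without mouse 182 (0.0609%), and 4 of these were Zfp949, Gm37614, Gm11868 and Gm7049. With mouse 182 they were 2 (0.0174%), neither of them a member. The separations of the members were the same on the TPM scale and as reads relative to the total on genes. By limma, members passed the threshold for genotype on HFD in 2 of 4 tested in visWAT (0.0215% of all genes) and in 4 of 5 in liver (0.197%), and on NCD in 0 of 5 in visWAT (0 of 14063 genes, and 528 genes at an unadjusted p under 0.05, with 0 called by edgeR and 9 by DESeq2) and in 1 of 5 in liver (0.00758%), which was Gm5540. These contrasts chose the members, and the shares are given for reference only.

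The share of reads that fell on a pseudogene, among the reads on it and its parent gene, does not depend on how the libraries were scaled. For Gm11868 this share ranged from 5.93% (95% Wilson interval 4.14% to 8.44%, KO HFD mouse 153, liver) to 10.8% (8.29% to 14.0%, KO HFD mouse 157, liver) in KO mice over both tissues. In WT mice other than 182 it was at most 0.806% (0.345% to 1.87%, mouse 183, visWAT). In the library labelled WT NCD mouse 182 the share was 10.7% (8.47% to 13.5%) in visWAT and 6.23% (4.44% to 8.66%) in liver, both inside the KO range over the tissues and diets. The intervals cover counting error only.

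For Gm7049 the share was small but as well separated, from 0.269% (0.176% to 0.411%, mouse 151, visWAT) to 1.23% (1.03% to 1.45%, mouse 179, liver) in KO mice and at most 0.0598% (0.0303% to 0.118%, mouse 180, liver) in WT mice other than 182. In the library labelled WT NCD mouse 182 it was 0.695% (0.654% to 0.738%) in visWAT and 0.821% (0.666% to 1.01%) in liver. The visWAT share of mouse 182 was thus above that of every KO mouse on NCD, which reached 0.562%, and its FPKM was far higher alongside the high level of Me1.

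For Gm5540 the share fell into ranges that did not follow genotype. It was at most 0.850% (0.448% to 1.61%, WT HFD mouse 164, visWAT) in the 16 libraries of the 4 NCD-fed KO mice and of WT HFD mice 154, 155, 161 and 164. It was at least 4.85% (4.33% to 5.43%, KO HFD mouse 153, liver) and at most 9.80% (7.80% to 12.2%, KO HFD mouse 151, visWAT) in the 18 libraries of the 5 HFD-fed KO mice, of WT NCD mice 165, 180 and 183 and of WT HFD mouse 162. In the library labelled WT NCD mouse 182 it was 13.7% (12.6% to 14.9%) in visWAT and 14.2% (13.3% to 15.0%) in liver. All 18 mice were on the same side of 1% in both tissues, as they were for Gm11868.

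**Figure D2:**
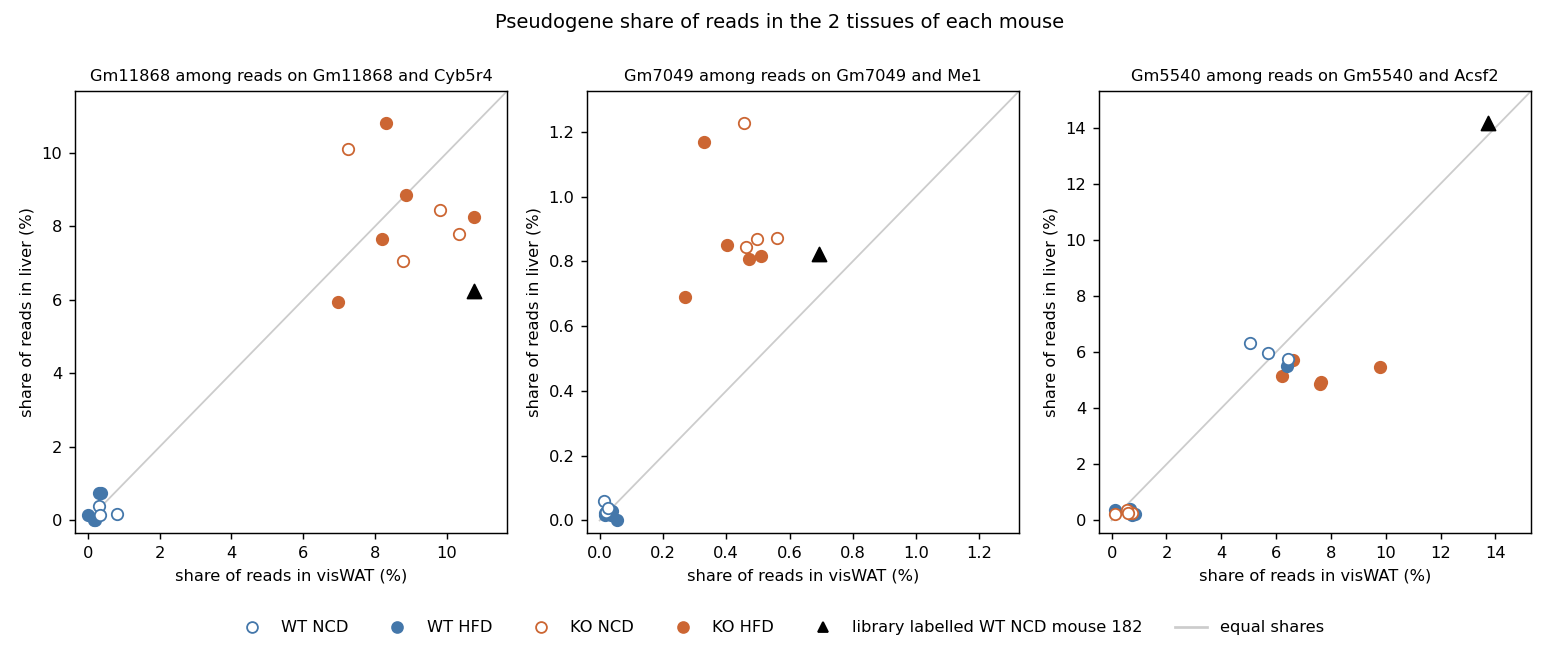
Share of reads on each pseudogene among reads on pseudogene and parent gene (%), in visWAT (horizontal axes) against liver (vertical axes), with 1 point per mouse. For Gm11868 and Gm7049 the KO mice and mouse 182 (triangle) lie apart from the other WT mice, and for Gm5540 mice of both genotypes lie near 0 and between 4.85% and 9.80%, with mouse 182 alone near 14.2%.

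Diet itself was not used to choose the members, and HFD was compared with NCD within each genotype and tissue with limma on log2(FPKM + 1). The genotype contrasts that named the members used these same libraries within each diet. The p-values of the members for diet are therefore not independent of that choice. Zfp949 fell on HFD in visWAT of both genotypes, by 0.50 on the log2 scale in WT mice (SE 0.11, adjusted p = 0.00533) and by 0.36 in KO mice (SE 0.086, adjusted p = 0.00855). All 5 HFD-fed WT mice were below all 4 NCD-fed WT mice, also without mouse 182, whereas 1 HFD-fed KO mouse (156) lay among the NCD-fed KO mice. In WT mice the call was lost on the TPM scale (log2 difference −0.22, adjusted p = 0.457), a scale that moved the median of all genes by 0.38 and the calls from 3108 higher and 2239 lower to 4298 and 253. In liver Zfp949 did not pass the threshold, with log2 differences of −0.29 in WT (adjusted p = 0.267, and −0.07 without mouse 182, adjusted p = 0.488) and −0.04 in KO mice (adjusted p = 0.677). Of all genes, 37.8% in WT and 43.7% in KO visWAT and 25.3% in WT and 22.2% in KO liver passed the threshold for diet. Of the members, 1 of 3 tested in WT visWAT, 4 of 5 in KO visWAT, 1 of 3 in WT liver and 2 of 5 in KO liver did so. Gm7049 and Gm5540 in WT visWAT and Gm37614 in WT liver passed the filter on low values only through mouse 182. For that reason too, their fits there are no independent tests.

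Gm5540 was higher on HFD than on NCD in KO mice in both tissues and lower in liver of WT mice. The genotype contrasts that named Gm5540 used these same libraries, so its p-values for diet are not independent of that choice. Each diet group also held different mice. By share of reads the same mice were high in both tissues, WT HFD mouse 162 among them. In liver the log2 difference was 2.68 in KO mice (SE 0.074, adjusted p = 1.19e-07) and −2.74 in WT mice (SE 0.59, adjusted p = 0.00916), the latter with mouse 162 still at a high level and at −2.49 without mouse 182 (adjusted p = 0.0187). In visWAT it was 0.90 in KO mice (SE 0.069, adjusted p = 0.000121) and −1.19 in WT mice (SE 0.52, adjusted p = 0.103). Mouse 182 held 482 of the reads behind the latter, and without it the difference was −0.55 (two-sided exact permutation test, p = 0.107, against p = 0.0317 with it), with Gm5540 then under the filter of the limma fit. The share of reads moved in the same way in KO mice, from a mean of 0.510% on NCD to 7.58% on HFD in visWAT and from 0.274% to 5.22% in liver (two-sided exact permutation test, p = 0.00794 for both, the smallest that 5 against 4 mice allow). Its parent Acsf2 fell on HFD in KO mice, by 0.44 in visWAT (limma adjusted p = 0.00370) and by 0.33 in liver (limma adjusted p = 0.0173).

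Gm7049 was lower on HFD in KO liver by 1.26 on the log2 scale (SE 0.12, adjusted p = 0.000198), and Me1 fell there by 1.78 (adjusted p = 0.000184, both limma). The share of reads on Gm7049 was 0.867% on HFD and 0.953% on NCD in these livers (two-sided exact permutation test, p = 0.452, among 48 such comparisons whose p-values were not adjusted). In KO visWAT Gm7049 was lower by 0.53 (SE 0.17, limma adjusted p = 0.0311), and the call was lost in 6 of 9 fits that left out 1 mouse (mice 151, 156, 166, 179, 197 and 199, adjusted p = 0.0511 to 0.0857) and with edgeR (adjusted p = 0.0675). Gm11868 was higher on HFD in KO visWAT by 0.37 (SE 0.11, limma adjusted p = 0.0247), a call lost without mouse 151, 152, 166 or 179 (adjusted p = 0.0507 to 0.0689). Its parent Cyb5r4 rose there by 0.55 (limma adjusted p = 0.00382), and the share of reads on Gm11868 was 8.61% on HFD and 9.04% on NCD (two-sided exact permutation test, p = 0.651). Gm37614 did not pass the threshold for diet in KO mice in visWAT (log2 difference 0.20, adjusted p = 0.608) or in liver (0.32, adjusted p = 0.578).

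Between the tissues of the same mice, 80.2% of all genes in WT and 82.1% in KO mice passed the threshold, and of the members 1 of 3 tested in WT and 4 of 5 in KO. Gm7049 entered the WT comparison only through mouse 182. The limma fits for tissue had diet as a covariate and treated both libraries of a mouse as independent. With the mouse as a block instead, no call of a member changed. Zfp949 was higher in visWAT than in liver in 9 of 9 KO mice, by 0.48 on the log2 scale (SE 0.065, limma adjusted p = 1.95e-06), whereas in WT mice the difference was −0.11 (adjusted p = 0.358) and visWAT was higher in 3 of 9. The TPM scale moved the median of all genes by 0.74 in WT and 0.86 in KO mice and the calls from 5782 higher and 6043 lower in visWAT to 11927 and 2988 in WT, and from 5800 and 6162 to 12971 and 2942 in KO mice. On it Zfp949 in WT mice turned to 0.63. Gm5540 was lower in visWAT in every mouse, with log2 differences of −1.56 in WT (SE 0.45, limma adjusted p = 0.00392) and −1.502 in KO mice (SE 0.22, adjusted p = 3.75e-06). Gm37614 and Gm7049 were lower in visWAT of KO mice, by 0.66 and 0.47 (limma adjusted p = 0.0171 and 0.00388), and both differences changed sign on the TPM scale (0.11 and 0.21, adjusted p = 0.733 and 0.306). Gm11868 differed by −0.11 in KO mice (adjusted p = 0.288) and by 0.70 on the TPM scale (adjusted p = 4.27e-05). As a share of reads, Gm7049 was lower in visWAT in 9 of 9 KO mice (means 0.440% and 0.905%, exact sign-flip permutation test, two-sided, p = 0.00391, the smallest that 9 mice allow), and Gm11868 had means of 8.80% and 8.32% (p = 0.461). The share of Gm5540, unlike its level, was higher in visWAT in 8 of 9 KO mice (means 4.44% and 3.02%, p = 0.00781 by the same exact test) and did not pass in WT mice (4.41% and 4.32%, exact p = 0.688).

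The surroundings of the members were examined for genes that differed between genotypes. Within 5 Mb of Zfp949 on chromosome 9, a window that takes in Gm37614, Me1 and Cyb5r4, 30 to 34 genes were tested per contrast, members left out. On HFD 16 of 34 in visWAT and 11 of 30 in liver had an unadjusted p under 0.05, beside 3003 of 13963 and 1664 of 13215 among all genes, and on NCD 5 of 32 and 2 of 31 did, beside 528 of 14063 and 574 of 13193. Of these neighbours 1, Bckdhb in liver on HFD, passed the adjusted threshold. On HFD their median difference (KO minus WT) was −0.11 in visWAT and −0.09 in liver, beside −0.00 and 0.00 over all genes. Bckdhb, a subunit of the enzyme that breaks down branched-chain keto acids, starts 4.62 Mb before Zfp949. In liver on HFD it averaged 80.2 FPKM in KO and 65.0 FPKM in WT mice (log2 difference 0.30, adjusted p = 0.0453), and in visWAT on HFD 51.7 and 24.4 FPKM (1.02, adjusted p = 0.113), without overlap of the mice in either. Bckdhb reached 75.8 FPKM in the library labelled WT NCD mouse 182 in visWAT and 79.0 FPKM in liver, above all KO and WT mice on NCD. With that library the genotypes overlapped for Bckdhb on NCD (ratio of means 1.03 in visWAT and 1.07 in liver). Without it every KO mouse was above every WT mouse in both tissues (1.22 and 1.25). Bckdhb was thus among the 7 genes higher in every KO mouse in all 4 combinations without mouse 182.

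Cyb5r4, the parent of Gm11868, was lower in KO than in WT mice in each combination, with log2 differences of −0.40 and −0.15 in visWAT on HFD and NCD and −0.29 and −0.20 in liver (limma adjusted p = 0.0985 or higher). In liver on NCD the mice overlapped with mouse 182, whereas without it the difference was −0.30 and every KO mouse was below every WT mouse. Me1 was at −0.34 and −0.81 in visWAT and −0.71 and −0.11 in liver (adjusted p = 0.234 or higher). Without mouse 182 the mean ratio of Me1 in visWAT on NCD was 0.962, against 0.313 with it. Of the nearest tested protein-coding genes, Syncrip, 101 kb before Zfp949, and Mthfsl, 141 kb after it, did not pass the threshold in any contrast, with differences between −0.20 and 0.06. Bcl2a1d and Bcl2a1a, the nearest to Gm37614, were tested in visWAT only and did not pass it either (−0.88 and 0.26 on HFD, adjusted p = 0.221 and 0.300).

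**Figure D3:**
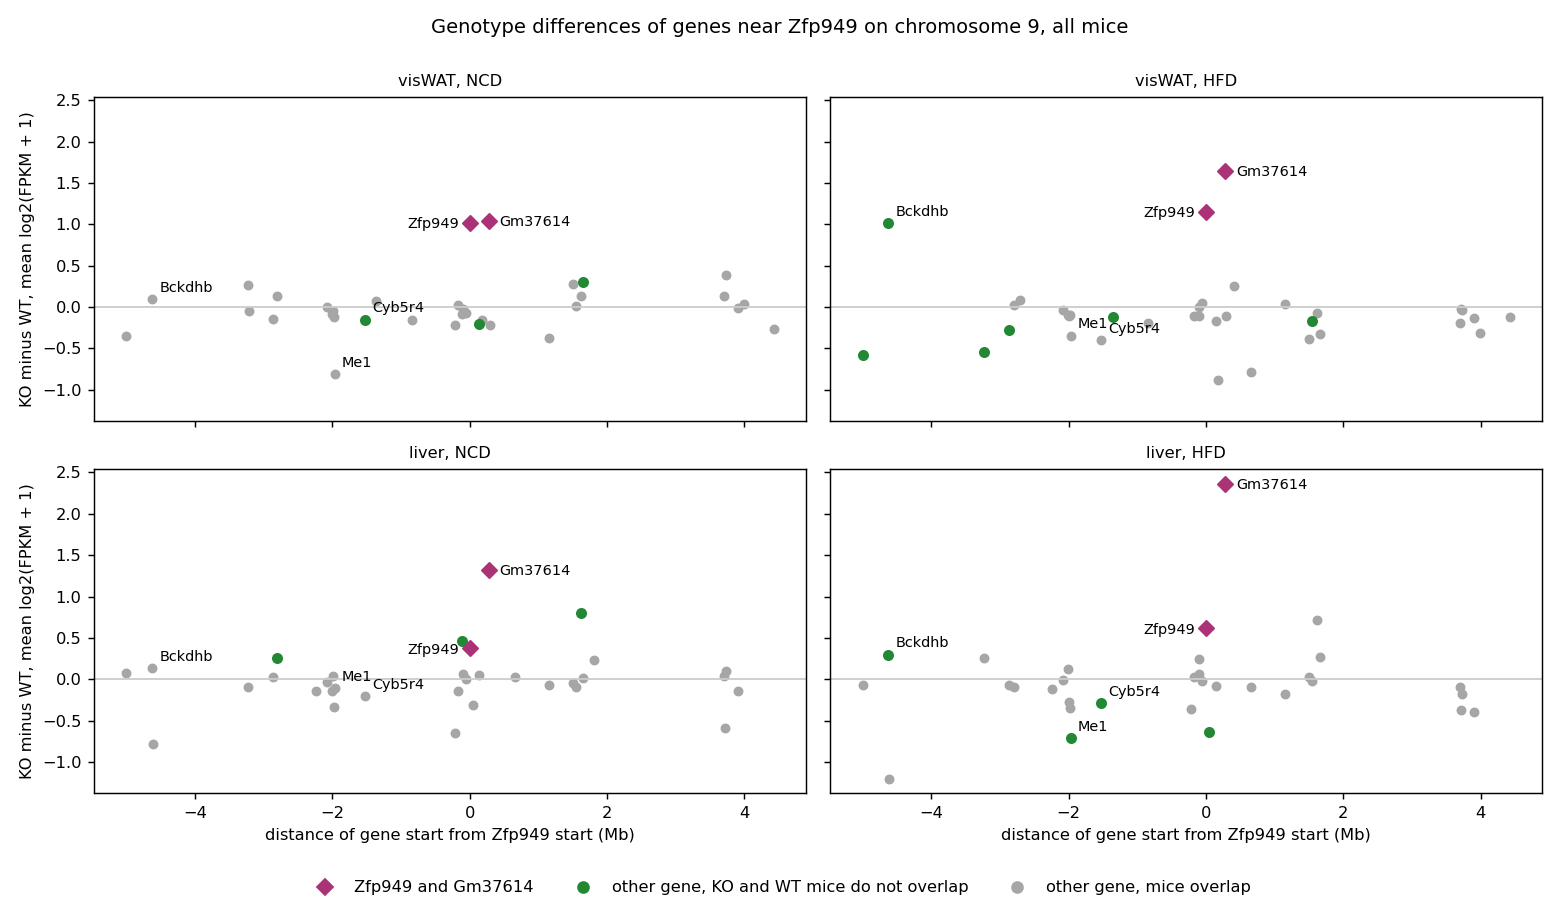
Difference between genotypes (KO minus WT, mean log2(FPKM + 1), vertical axes) of tested genes against the distance of their start from that of Zfp949 in Mb (horizontal axes), in 4 panels by tissue and diet, with all mice. Zfp949 and Gm37614 (diamonds) lie above all other genes shown in visWAT, whereas in liver another gene lies above Zfp949 on HFD and others do so on NCD. Green points are other genes whose KO and WT mice do not overlap. Gm37614 is drawn at its annotated place, though its reads may come from other copies of its sequence.

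Within 5 Mb of Gm11868, 20 to 26 genes were tested per contrast and 0 passed the adjusted threshold (0 to 4 at an unadjusted p under 0.05), and within 5 Mb of Gm7049 0 of 61 to 73 did (1 to 8 at an unadjusted p under 0.05). Near Gm5540 1 of 25 to 30 tested genes passed it, the pseudogene Gm18588 in liver on HFD (0.46, adjusted p = 0.0286, limma). The nearest tested protein-coding genes, Ripk2 and Cpne3 for Gm11868, Platr25 and Fbp2 for Gm7049 (visWAT only) and Ssr3 and Tiparp for Gm5540, did not pass it in any contrast in which they were tested. Near Mlkl itself, 0 of 65 to 70 genes within 5 Mb passed it (2 to 9 at an unadjusted p under 0.05). Counts of 0 here are by limma. Over all genes it called 3 of 13963 in visWAT on HFD and 0 of 14063 on NCD. In liver it called 26 of 13215 on HFD and 1 of 13193 on NCD. At an unadjusted p under 0.05 there were 3003 and 528 genes in visWAT and 1664 and 574 in liver.

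Genes with a pattern like that of the members were ranked by Pearson correlation over the 36 libraries, after the mean of each tissue and diet had been subtracted, among 14657 genes. These values are descriptions and share the libraries that named the members. Zfp949 was closest to Eif4a2 (r = 0.90), Gsta4 (0.78) and Morf4l1-ps1 (0.78), and Gm11868 to Eif4a2 (0.86), Morf4l1-ps1 (0.84) and Rfc4 (0.77). Gm37614 was closest to Rfc4 (0.80), Morf4l1-ps1 (0.74) and Eif4a2 (0.72). Eif4a2, an RNA helicase of translation initiation, and Rfc4, a subunit of the clamp loader of DNA replication, start 39.1 and 32.6 kb before Adipoq, the adiponectin gene, on chromosome 16. The place where Adipo-Cre is inserted is not given in the sources used here. Eif4a2 averaged 58.5 FPKM in KO and 33.8 FPKM in WT visWAT on HFD, and 93.0 and 64.3 FPKM in liver, and its mice did not overlap in any of the 4 combinations.

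Morf4l1-ps1, at chr16:24348144-24349112, is a processed pseudogene of Morf4l1, which starts 1.54 Mb after Zfp949 on chromosome 9. It lies within the lncRNA Gm61611, whose transcript holds all its 969 bases, and 5 other places in the genome matched it at 95% or more. Of its 100-base windows, 87.0% were identical to Morf4l1. Its reads are thus less certain than those of the member pseudogenes Gm11868, Gm7049 and Gm5540, though not than those of Gm37614. Its share of reads beside Morf4l1 ranged from 12.9% (11.7% to 14.2%) to 16.5% (15.4% to 17.7%) in KO mice and from 7.54% (6.65% to 8.55%) to 11.3% (10.4% to 12.3%) in WT mice other than 182. For the library labelled WT NCD mouse 182 the share was 14.5% (13.3% to 15.8%) in visWAT and 13.8% (12.6% to 15.1%) in liver, inside the KO range over both tissues and diets. In liver on NCD alone the KO shares started higher, at 14.0%. By level mouse 182 was at 17.0 FPKM in visWAT and 19.5 FPKM in liver, below the NCD-fed KO mice, which started at 20.5 and 22.1 FPKM. In liver that level lay within the other NCD-fed WT mice. Gm7049 was closest to Apoo (0.74), Rfc4 (0.73) and Zadh2 (0.72), and Gm5540 to genes that included Mir192 (0.69) and the pseudogene Gm7730 (0.62). Apoo and Zadh2 did not pass the threshold for genotype in any contrast (limma, differences from −0.26 to 0.16). Gm7049 stood at 22.6 FPKM in visWAT of mouse 182, and how far its correlations rest on that library was not tested. Among the members, Gm37614 and Gm11868 correlated at 0.89, and Gm5540 correlated with the others at 0.06 to 0.21.

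Eif4a2 in the library labelled WT NCD mouse 182 was at 58.3 FPKM in visWAT and 80.4 FPKM in liver, above the other NCD-fed WT mice, which reached 53.8 and 73.3 FPKM, and below the KO mice, which started at 73.4 and 95.5 FPKM. Of the members, only Gm37614 in visWAT lay within the range of the NCD-fed KO mice in this library. Zfp949, Gm37614 and Gm5540 in liver and Gm11868, Gm7049 and Gm5540 in visWAT lay above that range, and Zfp949 in visWAT and Gm11868 and Gm7049 in liver lay between the KO and the other WT mice.

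Of 8 genes known to differ between C57BL/6 substrains, 2 or 3 were expressed enough to be tested per contrast (Ide and Wdfy1 in all, Cyfip2 in visWAT on HFD and Nlrp12 in liver), and 0 passed the threshold in any (limma, adjusted p = 0.192 or higher), with differences from −0.82 to 0.14 and overlapping mice. Their medians were −0.24 and −0.47 in visWAT on HFD and NCD and −0.20 and −0.07 in liver, beside medians of −0.00 to 0.01 over all genes. The listed genes Nnt, Entpd4, Entpd4b and Crb1 were not tested in any contrast, and only RNA levels were compared. Whether the mice differed in substrain was not tested. Of 369 other numbered Zfp genes, 239 to 275 were tested per contrast, and 1, Zfp825 in liver on HFD, passed (0.32, limma adjusted p = 0.0454). Their medians lay between −0.02 and 0.03.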

How the data were processed

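Total RNA of visWAT and liver from 18 mice was sequenced. Per the methods of the study, the authors trimmed reads with fastp, aligned them with HISAT2 and counted them per gene with featureCounts (1.5.0-p3) on mm39, the build that is also named GRCm39. The deposited FPKM values are reads per kilobase of gene relative to a library size, whose ratio to the total of the gene counts ranged from 0.737 to 0.812 in liver and from 1.01 to 1.40 in visWAT. Reads on genes were recovered from FPKM, with the library size set from the deposited count columns. They were whole in 100% of values (tolerance 0.02) and equalled the deposited counts in 100% of the genes compared. Annotation release, strand setting and treatment of reads with several alignments are not given in the sources used here. The comparison tables also held 72 columns of normalised values or repeated FPKM per sample and the authors' fold changes, p-values and pathway enrichments, none of which were used.

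Differences were fitted with limma 3.58.1 (R 4.3.3) on log2(FPKM + 1) with a trend, for genes whose FPKM averaged 0.5 or more in the contrast, and p-values were adjusted over all genes tested by Benjamini-Hochberg (threshold 0.05). Single values were compared with exact permutation tests (scipy 1.17.1). Groups were taken from the labels, and p-values measure the spread between mice. In the limma fits for tissue, which had diet as a covariate, both libraries of a mouse were instead treated as independent. Members and lists were chosen with earlier results of these data known. Genes named besides the members were the 3 with the highest correlation to each member (1 of them is not reported here), the nearest tested protein-coding genes, Mlkl, Adipoq and Eif4a2, called genes within 5 Mb and in the lists, and genes separated in all 4 genotype contrasts. The parents of the pseudogenes, uncalled list genes and the share of reads were chosen after values were seen. Parents were found with blastn 2.17.0. Visceral fat and liver libraries of the same number came from the same mouse, and after removal of group means they correlated at −0.07 to 0.24, with 3 of 18 over 0.1. Other settings tried were no filter, a filter at 1 FPKM, a pseudocount of 0.1, TPM, edgeR 4.0.16 and DESeq2 1.42.0 on recovered reads, each mouse left out, and mouse as a replicate block for tissue. Intervals are 95% Wilson intervals. With reads on genes of 20875463 to 30322171 per library, a gene with 0 reads is compared at a floor of 3 reads. The limma script was tested on simulated data.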

Additional observations from a re-analysis of the deposited data

Results flagged for a closer look

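Within each group of 4 or 5 mice, the highest and the lowest mouse were compared with the rest by the gap to the nearest mouse as a share of the range of the group, against Dixon's critical values. Of 64 groups, over levels and shares of reads, 21 held such a mouse, and in 15 of them it was mouse 182. Chance gives about 1 in 20 groups, but the members were chosen with the values of mouse 182 known and values of one mouse are not independent, so this rate is no test of that mouse. For Gm37614 the other WT NCD mice were at 0, which fixed the value.

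The library labelled WT NCD mouse 182 was high among WT NCD mice for Gm37614 in both tissues (1.0 each), for Gm11868 in visWAT (0.952) and liver (0.955), for Gm7049 in visWAT (0.999) and liver (0.953) and for Gm5540 in visWAT (0.930) and liver (0.866). For Zfp949 it was high in liver (0.856). By share of reads beside the parent gene it was high for Gm7049 (0.983 in visWAT, 0.957 in liver), Gm11868 (0.952 and 0.961) and Gm5540 (0.839 and 0.929).

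WT HFD mouse 162 stood above the other WT HFD mice for Gm5540 in visWAT (0.858) and liver (0.955), and by share of reads (0.887 and 0.958). KO HFD mouse 156 was high for Zfp949 in visWAT (0.736). KO NCD mouse 179 was high for the share of reads on Gm7049 in liver (0.928).

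Gm5540 in liver differed between the diets in opposite directions, with a log2 difference of −2.74 in WT and 2.68 in KO mice. The difference between these diet effects was not tested, since the genotype contrasts chose the gene. All causes of the patterns above were not tested.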

How the results depend on the processing

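Of 62 counts of called genes under other settings, 54 stayed within 1.5 times, as did 81 of 90 with 1 mouse left out. For genotype, visWAT on HFD gave 6 genes on the TPM scale and 146 with DESeq2 (3 by limma). In visWAT on NCD there were 2 without the filter and 9 with DESeq2 (0 by limma and by edgeR). In liver on HFD they were 7 without the filter and 256 with DESeq2 (26 by limma), and on NCD 3 and 17 (1 by limma). The cause was not tested.

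With 1 mouse left out, the genotype counts ranged from 3 to 16 in visWAT on HFD (16 without mouse 153), from 0 to 1 in visWAT on NCD (1 without 182), from 9 to 37 in liver on HFD (9 without 151 or 153, 12 without 154 or 164, 11 without 161, 13 without 162) and from 1 to 7 in liver on NCD (7 without 182). On the TPM scale the tissue difference changed sign for Zfp949 in WT mice (0.63) and for Gm11868 (0.70), Gm37614 (0.11) and Gm7049 (0.21) in KO mice. With the mouse as a replicate block, 11361 genes passed in WT and 11608 in KO mice, beside 11825 and 11962, and no call of a member changed. Levels of Gm37614 rest on 6 to 42 reads, and those of Gm11868 and Gm7049 in WT mice other than 182 on at most 8 reads, so small differences there were not detectable at this depth. Reads on Gm37614 may also come from other copies of its sequence.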
